A study of Mus musculus with 8 samples.

Results

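Nucleolar ribosome biogenesis factors are the proteins that build ribosomal subunits. The 46 genes described here were matched by name in a table of 23234 gene symbols, from a list drawn up with earlier results of these data known. They cover 6 roles: RNA polymerase I transcription and nucleolar scaffold (9 genes), the box C/D snoRNP core (3), the box H/ACA snoRNP core (3), rRNA base modification enzymes (3), small subunit assembly (13) and large subunit assembly (15). All 46 were present and all 46 passed the filter on low values, at least 1 FPKM in at least 2 libraries, which left 10610 genes. FPKM is a level per transcript length: fragments per kilobase, divided by the mapped fragments of the library.

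The 8 RNA libraries came from mouse germinal centre B cells, which diversify their antigen receptors by mutation and are then selected for binding. Every group was of the C57BL/6 background and shared floxed Prdm1 alleles, Prdm1(f/f), a knocked-in ERT2cre allele, ERT2cre(KI/+), and a knocked-in receptor allele, B1-8hi(KI/+). The groups differed in Bach2, which was either Bach2(+/+) or Bach2(f/f). Prdm1 encodes a factor of plasma cell differentiation, and Bach2 encodes a repressor of transcription in B cells. ERT2cre gives a Cre recombinase that tamoxifen activates, and B1-8hi gives binding to the hapten NP. Naive donor cells were placed in wild-type recipients, which received 3 mg of tamoxifen for 3 days and were then immunized with NP-CGG in alum. NP-binding donor cells with GL7 and without CD38 were sorted on day 10 as light zone cells (LZ, CD86 high and CXCR4 low) or dark zone cells (DZ, CD86 low and CXCR4 high). Each of the 4 groups, Bach2(+/+) LZ, Bach2(f/f) LZ, Bach2(+/+) DZ and Bach2(f/f) DZ, had 2 libraries. The spleens of 5 recipients were pooled. Recipient age was not given, and cells with intact Prdm1 were not analysed here. The labels do not say that the 2 libraries of a group came from separate pools, so the spread behind each p-value is that between libraries and may be technical.

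Ribosome production begins in the nucleolus, where RNA polymerase I transcribes the long precursor of ribosomal RNA. Small nucleolar ribonucleoproteins (snoRNPs) guide chemical modification of that precursor: box C/D particles direct ribose methylation and box H/ACA particles direct pseudouridylation. Assembly factors then fold and cut the precursor into small and large subunits, which are exported to the cytoplasm. In germinal centre B cells, ribosome biogenesis is known as one of the growth programmes switched on in cells that receive T cell help in the light zone.

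Summed FPKM was 502214 to 540885 per library, 10192 to 10250 genes reached 1 FPKM, and the absolute depth is unknown. From the spacing of low values, relative depth was 1 to 1.10 in the LZ libraries and 1.41 to 1.62 in the DZ libraries, so low values were less finely resolved in LZ. Bach2 itself was at 49.8 and 53.4 FPKM in Bach2(+/+) LZ, 64.5 and 62.7 in Bach2(f/f) LZ, 76.2 and 74.6 in Bach2(+/+) DZ and 96.2 and 94.5 in Bach2(f/f) DZ. A gene-level value counts exons outside the floxed part, and so does not check the deletion. Prdm1 was at 0.0577 and 0.0184 FPKM in Bach2(+/+) LZ, 0.980 and 0.966 in Bach2(f/f) LZ, 0.0473 and 0.122 in Bach2(+/+) DZ and 0.258 and 0.434 in Bach2(f/f) DZ. It was thus low in every library and higher in Bach2(f/f) libraries in both zones. All 9 B cell and germinal centre markers were at 75.3 FPKM or more in every library. The summed light zone markers, which include the sorting marker Cd86, were 528 to 557 FPKM in Bach2(+/+) LZ and 468 to 471 in Bach2(f/f) LZ. In DZ they were 178 to 195 and 138 to 142 FPKM, so the sum was lower in Bach2(f/f) in both zones. The summed dark zone markers, which include the sorting marker Cxcr4, were 286 to 291 and 263 to 266 FPKM in LZ. In DZ they were 425 to 446 and 420 to 429 FPKM. The part of these differences in the genotype results was not tested.

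As a set, the 46 genes were lowest in Bach2(+/+) DZ and highest in Bach2(f/f) LZ. Their summed FPKM made up 0.336% and 0.331% of all FPKM in the Bach2(+/+) DZ libraries, 0.420% and 0.419% in Bach2(f/f) DZ, 0.425% and 0.432% in Bach2(+/+) LZ, and 0.619% and 0.607% in Bach2(f/f) LZ. The share in Bach2(f/f) DZ thus came close to that in Bach2(+/+) LZ, while the other groups stood apart. Npm1, the gene with the highest FPKM, weighed most in these sums. Without it the share was 0.296% and 0.294% in Bach2(f/f) DZ and 0.289% and 0.292% in Bach2(+/+) LZ. The order of these middle groups by share was thus reversed, but their order by summed FPKM was not. Without Npm1 the sum was 1498 and 1487 FPKM in Bach2(f/f) DZ and 1563 and 1547 FPKM in Bach2(+/+) LZ. The FPKM of all genes summed to 506633 and 504949 in the former and 540885 and 530156 in the latter. Bach2(+/+) DZ stayed lowest, at 0.229% and 0.225%, and Bach2(f/f) LZ highest, at 0.422% and 0.412%. Between the 2 libraries of a group, the median ratio of the higher to the lower value over the 46 genes was 1.03 to 1.06, and the largest ratio for 1 gene was 1.30, for Nop16 in Bach2(+/+) DZ. The exons of 21 of the 46 genes overlap an exon on the opposite strand, whose reads cannot be told apart where strand was not kept. In sorted bulk cells a change in the make-up of the sample and a change in RNA per cell cannot be told apart, and FPKM gives no amount per cell.

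**Figure D1:**
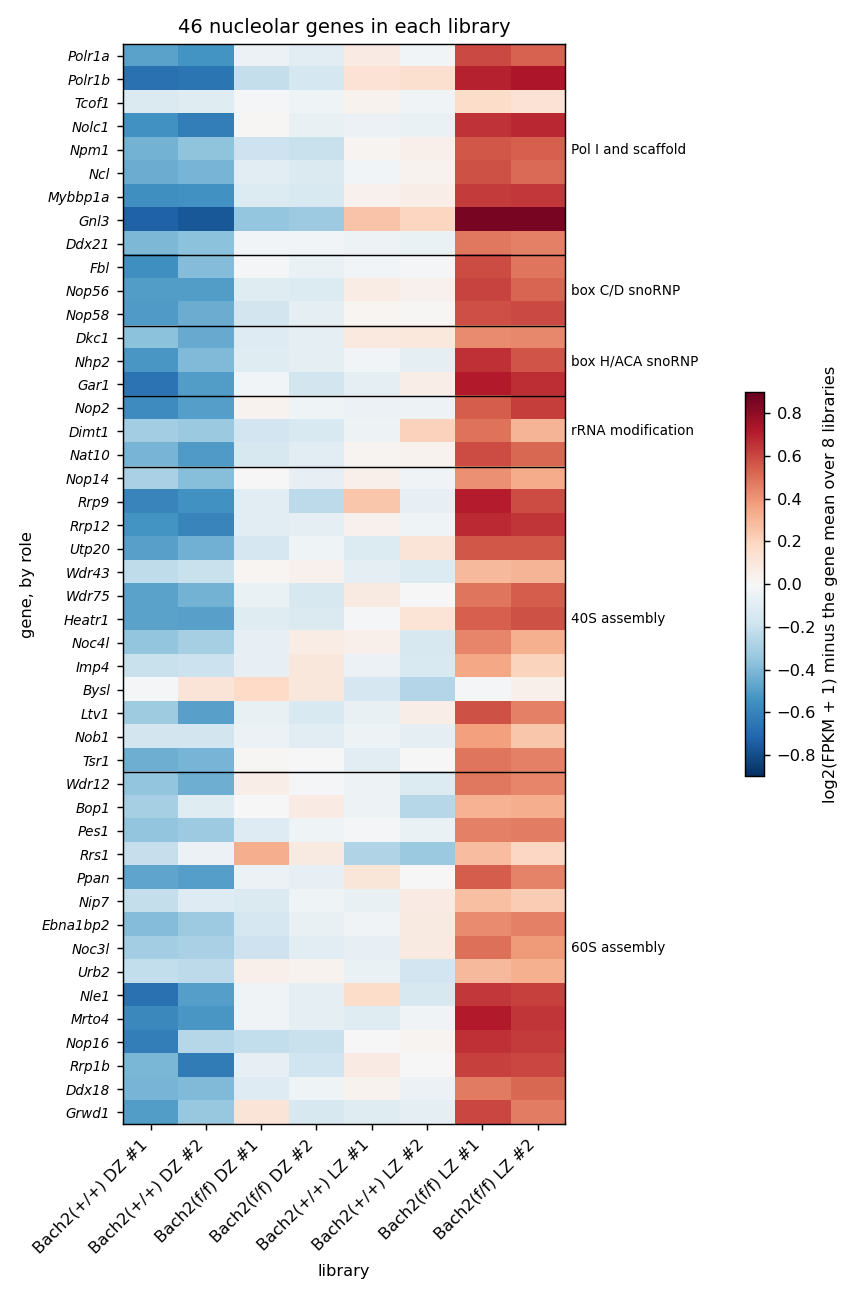
Level of each of the 46 genes (vertical axis, grouped by role) in each of the 8 libraries (horizontal axis), as log2(FPKM + 1) minus the mean of that gene over the 8 libraries. Red is above and blue below the gene's own mean; the Bach2(f/f) LZ columns are red and the Bach2(+/+) DZ columns blue for nearly all genes, with Bysl as the clearest exception.

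The first comparison asked how the genes differed between Bach2(f/f) and Bach2(+/+) cells within the light zone. Of the 46 genes, 45 were higher in Bach2(f/f) LZ at an adjusted p under 0.05 and 0 were lower, against 18.4% of all tested genes called higher and 12.7% called lower. Values were compared as log2(FPKM + 1) with limma over all genes, with Benjamini-Hochberg adjustment, and differences on that scale are given ± SE. The median difference over the 46 genes was 0.51 (range 0.15 to 0.75), against 0.02 over all tested genes. In FPKM the ratio of the group means ran from 1.11 for Tcof1 to 1.70 for Mrto4. Both Bach2(f/f) LZ libraries lay above both Bach2(+/+) LZ libraries for 46 of 46 genes, against 36.5% of all tested genes.

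Among the genes of RNA polymerase I transcription and the nucleolar scaffold, 9 of 9 were higher, with a median difference of 0.54. Mybbp1a, a nucleolar Myb-binding protein that takes part in rRNA processing, was at 71.1 and 72.0 FPKM in Bach2(+/+) LZ and at 107 and 108 FPKM in Bach2(f/f) LZ (difference 0.58 ± 0.032, adjusted p = 0.000772). Gnl3, the nucleolar GTPase nucleostemin, was at 42.2 and 40.3 FPKM in Bach2(+/+) LZ and at 64.2 and 64.3 FPKM in Bach2(f/f) LZ (0.63 ± 0.04, adjusted p = 0.000884). The gaps of both genes were many times the spread within a group. Tcof1, the nucleolar scaffold protein treacle, was at 61.0 and 58.4 FPKM in Bach2(+/+) LZ against 67.0 and 65.3 FPKM in Bach2(f/f) LZ (0.15 ± 0.038, adjusted p = 0.0301). Its libraries did not overlap, but its difference was the lowest of the 46, and its call was lost in 10 of 19 alternative fits, with adjusted p up to 0.222. Npm1, the abundant nucleolar chaperone nucleophosmin, had the highest level of the set in FPKM, with 734 and 744 in Bach2(+/+) LZ and 1061 and 1044 in Bach2(f/f) LZ.

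All 3 genes of core proteins of the box C/D snoRNP were higher, with a narrow range of differences from 0.51 to 0.57. Nop58, a scaffold of the particle, was at 91.0 and 90.7 FPKM in Bach2(+/+) LZ and at 135 and 136 FPKM in Bach2(f/f) LZ (0.57 ± 0.043, adjusted p = 0.000918). Its partner Nop56 was at 102 and 100.5 FPKM in Bach2(+/+) LZ and at 149 and 141 FPKM in Bach2(f/f) LZ (0.51 ± 0.039, adjusted p = 0.000918). Fbl, fibrillarin, the ribose methyltransferase of the particle, was at 136 FPKM in both Bach2(+/+) LZ libraries and at 208 and 193 FPKM in Bach2(f/f) LZ (0.56 ± 0.064, adjusted p = 0.00212). The mRNAs of these 3 subunits were thus about 1.4 to 1.5 times as high, with ratios of 1.49, 1.43 and 1.47. Protein levels were not examined, for these or the other genes.

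The box H/ACA core was higher in 3 of 3 genes as well, but with unequal sizes. Nhp2, an RNA-binding core protein, was at 69.8 and 66.8 FPKM in Bach2(+/+) LZ and at 112 and 105.5 FPKM in Bach2(f/f) LZ (0.66 ± 0.056, adjusted p = 0.00107). Gar1, another core protein, was at 28.7 and 31.8 FPKM in Bach2(+/+) LZ and at 50.5 and 48.9 FPKM in Bach2(f/f) LZ (0.70 ± 0.08, adjusted p = 0.00208). For Dkc1, dyskerin, the pseudouridine synthase, the values were 47.5 and 47.7 FPKM in Bach2(+/+) LZ and 60.3 and 60.5 FPKM in Bach2(f/f) LZ (0.34 ± 0.041, adjusted p = 0.00247). The libraries of the 3 genes did not overlap between genotypes, and whether the difference of Dkc1 was smaller than those of its partners was not tested.

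Of the 3 genes of enzymes that modify rRNA bases, 2 were higher. Nop2, a cytosine methyltransferase of large subunit rRNA, was at 24.5 and 24.6 FPKM in Bach2(+/+) LZ and at 37.5 and 39.6 FPKM in Bach2(f/f) LZ (0.63 ± 0.05, adjusted p = 0.000979). Nat10, the cytidine acetyltransferase, was at 13.4 and 13.5 FPKM in Bach2(+/+) LZ and at 20.2 and 19.2 FPKM in Bach2(f/f) LZ (0.52 ± 0.055, adjusted p = 0.00173). Dimt1, the adenosine dimethyltransferase of small subunit rRNA, was the 1 gene of the 46 that missed the threshold. It was at 6.98 and 8.49 FPKM in Bach2(+/+) LZ and at 10.6 and 9.20 FPKM in Bach2(f/f) LZ (0.32 ± 0.1, adjusted p = 0.0533). Its groups did not overlap, and the ratio of its 2 Bach2(f/f) LZ libraries, 1.15, was the largest of the set in that group.

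Among the small subunit assembly genes, 13 of 13 were higher, with a median difference of 0.48. Rrp12, a factor of subunit maturation and export, was at 8.61 and 8.12 FPKM in Bach2(+/+) LZ and at 13.9 and 13.6 FPKM in Bach2(f/f) LZ (0.66 ± 0.055, adjusted p = 0.00107). Wdr43, a component of the small subunit processome, was at 43.1 and 42.1 FPKM in Bach2(+/+) LZ and at 56.5 and 57.3 FPKM in Bach2(f/f) LZ (0.41 ± 0.036, adjusted p = 0.00113). Both genes had clearly separated groups. Bysl, bystin, needed for late small subunit maturation, was at 20.1 and 18.5 FPKM in Bach2(+/+) LZ and at 22.2 and 23.1 FPKM in Bach2(f/f) LZ (0.22 ± 0.067, adjusted p = 0.0463). Its call was the nearest to the threshold and was lost in 13 of 19 alternative fits, with adjusted p up to 0.367. The remaining 10 genes of this role, which include Heatr1, Utp20 and Nob1, had differences from 0.36 to 0.56.

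Of the large subunit assembly genes, 15 of 15 were higher, with a median difference of 0.50. Mrto4, which takes part in assembly of the ribosomal stalk, was at 41.3 and 43.6 FPKM in Bach2(+/+) LZ and at 73.8 and 70.3 FPKM in Bach2(f/f) LZ (0.75 ± 0.049, adjusted p = 0.000887). This was the highest difference of the 46, and the annotation holds copies named as pseudogenes of Mrto4 that could share its reads. Pes1, which acts in a complex with Bop1 and Wdr12, was at 39.2 and 37.7 FPKM in Bach2(+/+) LZ and at 54.5 and 54.7 FPKM in Bach2(f/f) LZ (0.49 ± 0.042, adjusted p = 0.00108). Its partners in the complex were close to it, with differences of 0.47 for Bop1 and 0.54 for Wdr12. Nip7, a factor of precursor rRNA processing, was at 24.7 and 27.4 FPKM in Bach2(+/+) LZ and at 31.6 and 30.6 FPKM in Bach2(f/f) LZ (0.25 ± 0.066, adjusted p = 0.0307). Its libraries did not overlap, and its call was lost in 9 of 19 alternative fits, with adjusted p up to 0.135.

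Markers of other cells were compared beside these results. Of 9 myeloid markers, 5 reached 1 FPKM in some library and 0 did so in all. Their sum was 6.42 and 50.1 FPKM in the Bach2(+/+) LZ libraries and 20.4 and 143 FPKM in Bach2(f/f) LZ, with the higher value in the number 2 library of each group, against 0.946 to 2.69 in the DZ libraries. With both number 2 LZ libraries left out, a fit chosen after seeing the data, 31 of the 46 genes were called higher, against 5.51% of all tested genes, and the median difference was 0.54. Each LZ group then had 1 library, whose spread was taken from the other groups. Of 6 T cell markers only Lck reached 1 FPKM. It was at 58.5 and 53.0 FPKM in Bach2(+/+) LZ, 62.6 and 64.6 in Bach2(f/f) LZ and 32.7 to 35.1 in DZ. The summed NK cell markers were at most 1.51 FPKM. Of 6 erythroid markers, 3 reached 1 FPKM in some library. Their sum was 25.5 to 35.8 FPKM in Bach2(+/+) LZ and 25.8 to 32.65 in Bach2(f/f) LZ. In DZ the erythroid sum was 18.9 to 22.5 and 16.8 to 20.3 FPKM. Within LZ, Hbb-b2 was lower and Hbb-b1 higher in Bach2(f/f). Of 5 plasma cell markers, 3 reached 1 FPKM in every library and Tnfrsf17 was listed at 0 in all. Their sum was 91.9 to 97.7 FPKM in Bach2(+/+) LZ and 116.5 to 117 FPKM in Bach2(f/f) LZ, and in DZ it was 79.9 to 89.4 and 81.1 to 84.2 FPKM. Slpi was at 10.2 and 11.5 FPKM in Bach2(+/+) LZ and at 24.7 and 26.3 FPKM in Bach2(f/f) LZ. Sdc1 was at 0.0666 and 0.0637 against 0.606 and 0.505 FPKM. In DZ, Slpi was at 5.22 and 5.69 FPKM in Bach2(+/+) and at 9.28 and 10.7 in Bach2(f/f). Mean Sdc1 there was 0.091 and 0.215 FPKM. In LZ, Xbp1 and Irf4 differed less in proportion. Their Bach2(+/+) and Bach2(f/f) means were 72.66 and 78.02 FPKM for Xbp1 and 11.28 and 12.89 for Irf4. In DZ their means were lower in Bach2(f/f). They were 75.57 and 70.29 FPKM for Xbp1, whose libraries overlapped, and 3.527 and 2.169 for Irf4. The summed B cell and germinal centre markers were lower in Bach2(f/f), with 4114 to 4211 FPKM in Bach2(+/+) LZ against 3630 to 3647, and 3617 to 3773 FPKM in Bach2(+/+) DZ against 3231 to 3259. The part of these marker differences in the results was not tested. Under upper-quartile scaling, 45.5% of all calls in this contrast were higher, against 59% as reported, and 42 of the 46 genes were called higher, against 14.6% of all tested genes.

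**Figure D2:**
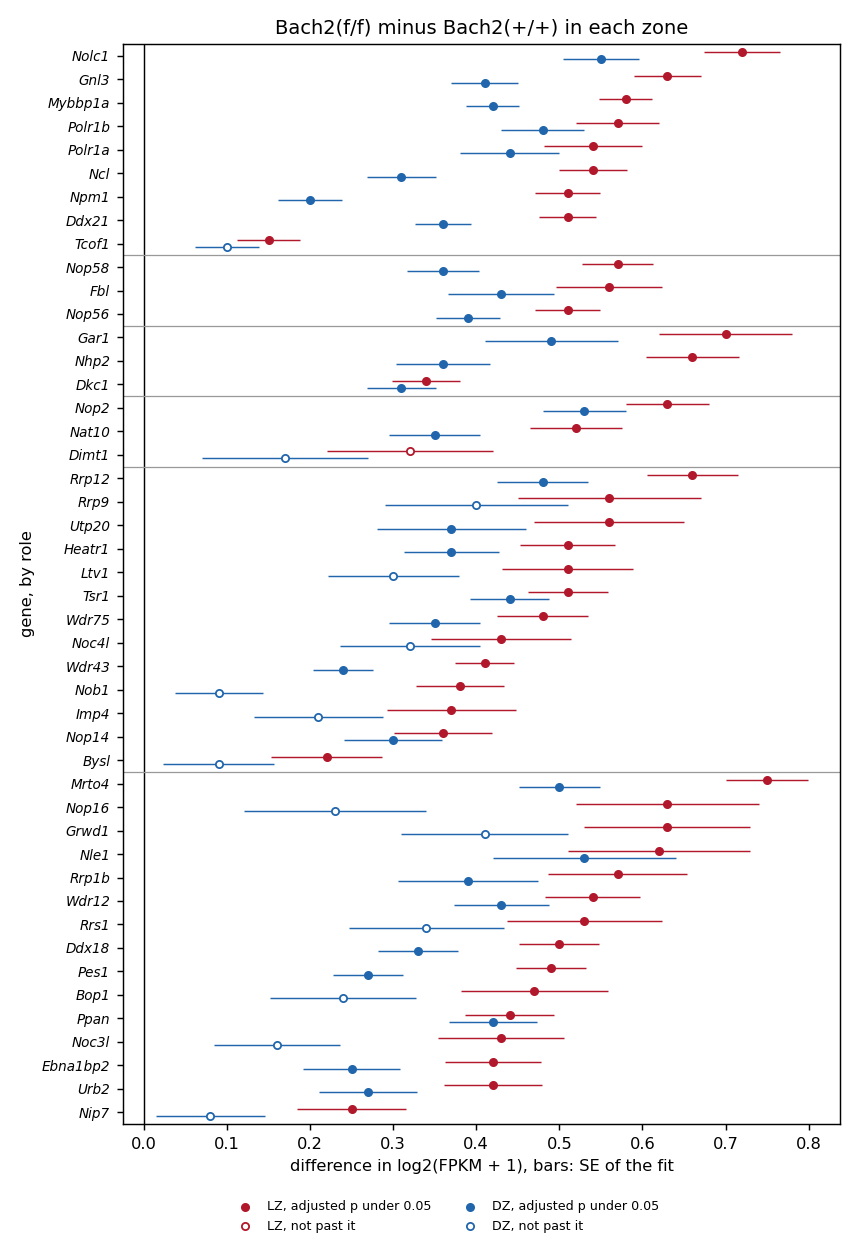
Difference between Bach2(f/f) and Bach2(+/+) in log2(FPKM + 1) (horizontal axis, bars are the SE of the fit) for each of the 46 genes (vertical axis, by role) in LZ and in DZ; filled points have an adjusted p under 0.05. All points lie to the right of 0, with 45 filled in LZ and 32 in DZ.

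Sequence around the start sites was examined for the genes that moved together. RefSeq windows of 300 bases (250 before and 50 after a gene's start, build GRCm38.p6) were found for 40 of the 46 genes. Bop1, Fbl, Npm1, Rrp12, Rrs1 and Tcof1 had no entry. The motif CACGTG, the E-box that MYC and related factors recognise, was present in 10 of 40 genes (25%), against 12.4% of the 7472 tested genes with a window and 7.15% of all windows. The 10 matches are shown as stretches of 30 bases on the strand of the gene, 5′ to 3′, with CACGTG in capitals, because they place the motif relative to the start site in genes of 4 of the roles.
Imp4, chr1:34439696-34439725, plus strand: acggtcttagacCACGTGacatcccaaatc
Nop2, chr6:125131811-125131840, plus strand: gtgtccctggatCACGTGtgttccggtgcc
Pes1, chr11:3963965-3963994, plus strand: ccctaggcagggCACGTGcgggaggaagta
Wdr43, chr17:71616220-71616249, plus strand: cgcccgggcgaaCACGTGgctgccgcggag
Nle1, chr11:82908355-82908384, minus strand: tcggttctcctcCACGTGgggacgcaggat
Tsr1, chr11:74898092-74898121, plus strand: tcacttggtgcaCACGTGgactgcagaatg
Ltv1, chr10:13193092-13193121, minus strand: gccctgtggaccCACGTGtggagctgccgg
Grwd1, chr7:45830740-45830769, minus strand: aagggccggagtcgCACGTGtgaaaccgga
Utp20, chr10:88826765-88826794, minus strand: cccagcggcactaactaCACGTGaggaaaa
Mybbp1a, chr11:72441347-72441376, plus strand: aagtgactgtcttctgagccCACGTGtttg
Counted from the start site, the motif began at base −121 in Imp4, at base −60 in Nop2 and between base 3 and base 41 in the other 8 genes. These positions depend on the annotated start: the RefSeq and GENCODE starts were 0 to 31 bases apart in 8 of the 10 genes, 155 in Grwd1 and 320 in Wdr43.

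Longer upstream stretches of 120 bases are shown for 3 genes described above: Mybbp1a and Nop2, which hold a CACGTG match and had the smallest p-values among named genes that do, and Dimt1, which had the largest p-value. Capitals mark CACGTG or CACGCG (or its reverse complement CGCGTG), and in Mybbp1a overlapping copies of the latter form 1 run. The stretches do not show every match of these genes. The CACGTG of Mybbp1a, at base 41, and a CACGCG match of Dimt1, at base 28, lie after the start site and outside them.
Mybbp1a, chr11:72441207-72441326, plus strand: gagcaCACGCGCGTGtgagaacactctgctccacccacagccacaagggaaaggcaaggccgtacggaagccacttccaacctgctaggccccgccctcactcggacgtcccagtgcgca
Nop2, chr6:125131763-125131882, plus strand: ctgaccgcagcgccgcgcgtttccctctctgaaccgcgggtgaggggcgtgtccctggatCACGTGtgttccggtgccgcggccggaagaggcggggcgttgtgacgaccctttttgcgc
Dimt1, chr13:106947007-106947126, plus strand: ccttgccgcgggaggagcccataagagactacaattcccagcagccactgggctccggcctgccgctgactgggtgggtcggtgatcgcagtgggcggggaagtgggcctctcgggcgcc
Searched on both strands, CACGCG was present in 10 of 40 genes (25%), against 20.8% of tested genes with a window. The motif CCGGAAGT, recognised by ETS factors, was present in 9 of 40 (22.5%), against 10.4%. TGAGTCA, a site of AP-1 type that forms the core of elements bound by BACH and MAF proteins, was present in 0 of 40, against 3.84%. A match describes letters, not binding, and the absence of a match holds only for these windows.

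In the dark zone, 32 of the 46 genes were higher in Bach2(f/f) than in Bach2(+/+) cells by limma with Benjamini-Hochberg adjustment and 0 were lower, against 6.63% of all tested genes called higher and 5.23% called lower. The median difference was 0.35 (range 0.08 to 0.55), against 0.01 over all tested genes. For 44 of the 46 genes the libraries of the genotypes did not overlap, against 32.3% of tested genes. The number of calls depended on single libraries, while the median difference lay between 0.34 and 0.38 with any 1 DZ library left out. Without Bach2(+/+) DZ replicate 1 it was 19 (1.78% of all tested genes were called higher in that fit), and without replicate 2 it was 24 (3.16%). Without Bach2(f/f) DZ replicate 1 it was 8 (0.511%), and without replicate 2 it was 7 (0.663%). Calls over all genes thus fell in the same fits. In these 4 fits and in the fit of all libraries, 46 of 46 genes had a difference above 0, against 53.6% of all tested genes in the latter.

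By role, 8 of 9 genes of RNA polymerase I transcription and scaffold were higher in DZ, 3 of 3 box C/D, 3 of 3 box H/ACA, 2 of 3 base modification, 7 of 13 small subunit and 9 of 15 large subunit genes. Mybbp1a was at 46.7 and 47.1 FPKM in Bach2(+/+) DZ and at 63.3 and 62.9 FPKM in Bach2(f/f) DZ (0.42 ± 0.032, adjusted p = 0.00223). Its groups were as cleanly separated as in LZ. Nolc1, a chaperone of snoRNPs, had the highest difference in DZ, with 24.4 and 23.0 FPKM in Bach2(+/+) DZ and 36.2 and 34.3 FPKM in Bach2(f/f) DZ (0.55 ± 0.046, adjusted p = 0.00294). Calls of 6 genes, Mybbp1a, Nolc1, Gnl3, Ddx21, Nop2 and Mrto4, held in all 19 alternative fits.

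The genes of snoRNP proteins were again separated by genotype in DZ. Nop58 was at 62.8 and 65.9 FPKM in Bach2(+/+) DZ and at 80.2 and 85.2 FPKM in Bach2(f/f) DZ (0.36 ± 0.043, adjusted p = 0.00795). Fbl was at 93.7 and 105.1 FPKM in Bach2(+/+) DZ and at 136 and 132 FPKM in Bach2(f/f) DZ (0.43 ± 0.064, adjusted p = 0.0125). Fbl varied more between Bach2(+/+) DZ libraries than Nop58, and its groups still did not overlap. Gar1 was at 18.9 and 21.2 FPKM in Bach2(+/+) DZ and at 29.9 and 27.1 FPKM in Bach2(f/f) DZ (0.49 ± 0.08, adjusted p = 0.0156). Dkc1 was at 34.3 and 32.3 FPKM in Bach2(+/+) DZ and at 41.1 and 42.0 FPKM in Bach2(f/f) DZ (0.31 ± 0.041, adjusted p = 0.00891).

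The enzyme Nop2 was at 16.9 and 17.7 FPKM in Bach2(+/+) DZ and at 26.03 and 24.7 FPKM in Bach2(f/f) DZ (0.53 ± 0.05, adjusted p = 0.00455). Mrto4 was at 29.5 and 30.8 FPKM in Bach2(+/+) DZ and at 43.7 and 42.0 FPKM in Bach2(f/f) DZ (0.50 ± 0.049, adjusted p = 0.0049). Both lay well outside the spread of their groups. The 14 genes that missed the threshold in DZ were Tcof1, Dimt1, Rrp9, Noc4l, Imp4, Bysl, Ltv1, Nob1, Bop1, Rrs1, Nip7, Noc3l, Nop16 and Grwd1. Nip7 had the lowest difference, with 22.3 and 23.9 FPKM in Bach2(+/+) DZ against 23.7 and 25.3 FPKM in Bach2(f/f) DZ, which overlapped (0.08 ± 0.066, adjusted p = 0.483). Bysl was at 22.1 and 24.4 FPKM against 25.5 and 24.1 FPKM, and these overlapped as well (0.09 ± 0.067, adjusted p = 0.44).

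**Figure D3:**
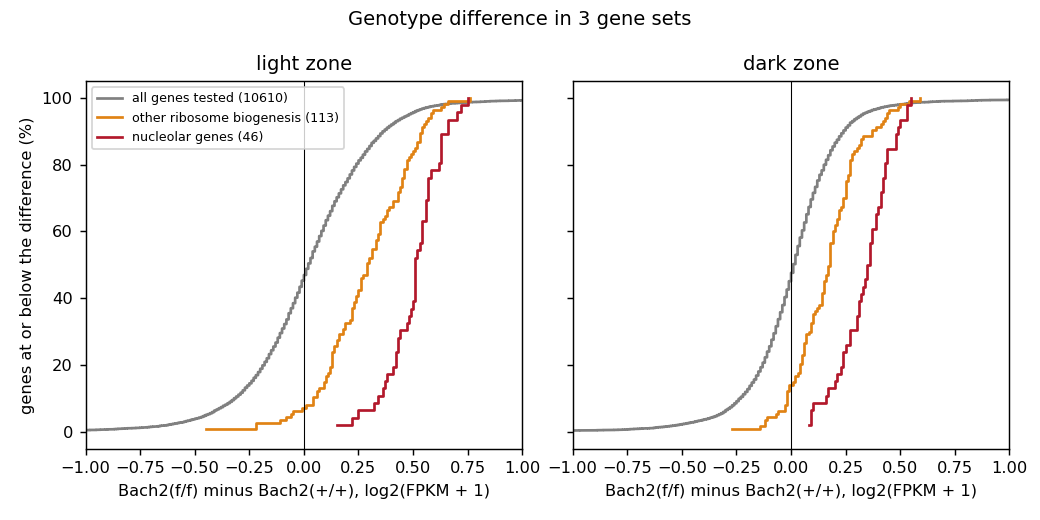
Cumulative share of genes (vertical axis) against the genotype difference in log2(FPKM + 1) (horizontal axis), for the 46 genes, the other ribosome biogenesis genes and all 10610 tested genes, in LZ and DZ. The curve of the 46 genes lies to the right of the curve of all genes in both zones, with medians of 0.51 against 0.02 in LZ and 0.35 against 0.01 in DZ.

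Light zone and dark zone cells were then compared within each genotype. In Bach2(+/+) cells, 36 of the 46 genes were higher in LZ and 1 was lower by limma with Benjamini-Hochberg adjustment, against 15.2% of all tested genes called higher and 16.1% called lower. The median difference of LZ minus DZ was 0.43 (range −0.26 to 0.97), against 0.00 over all tested genes (−0.0045). The libraries did not overlap and were higher in LZ for 43 genes, against 32.7% of all tested genes. In Bach2(f/f) cells, 44 were higher in LZ and 0 lower, against 18% of all tested genes called higher and 16.1% called lower, with a median of 0.58 (range −0.12 to 1.19). The libraries did not overlap and were higher in LZ for 44 genes, against 37.7% of tested genes. Without both number 2 LZ libraries, 31 genes were called higher in LZ of Bach2(+/+) and 40 in LZ of Bach2(f/f), against 7.36% and 11.4% of all tested genes. The comparisons of zone share libraries with those of genotype, so their counts are not independent of each other.

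Gnl3 had the highest zone difference in both genotypes. With 20.8 and 20.3 FPKM in Bach2(+/+) DZ, it was 2.01 times as high in Bach2(+/+) LZ (difference 0.97 ± 0.04, adjusted p = 7.49e-05). In Bach2(f/f) it was at 27.4 and 27.7 FPKM in DZ and 2.33 times as high in LZ (1.19 ± 0.04, adjusted p = 3.35e-05). Its 4 groups did not overlap anywhere. Polr1b, the second largest subunit of RNA polymerase I, followed with zone differences of 0.80 in Bach2(+/+) and 0.90 in Bach2(f/f). It was at 5.72 and 5.77 FPKM in Bach2(+/+) DZ, the lowest group, and at 16.2 and 16.7 FPKM in Bach2(f/f) LZ, the highest.

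Among the genes of snoRNP proteins, 6 of 6 were higher in LZ in both genotypes. Nop56 was at 68.7 and 68.8 FPKM in Bach2(+/+) DZ, below its LZ libraries given above (0.55 ± 0.039, adjusted p = 0.000316). In Bach2(f/f) DZ, Nop56 was at 90.8 and 89.8 FPKM (LZ minus DZ 0.68 ± 0.039, adjusted p = 0.000135). Nhp2 was at 49.1 and 53.6 FPKM in Bach2(+/+) DZ (0.41 ± 0.056, adjusted p = 0.00321) and at 65.7 and 66.7 FPKM in Bach2(f/f) DZ (0.71 ± 0.056, adjusted p = 0.000373). In each of these genes the zone groups were separated in both genotypes. The base modification enzymes were higher in LZ in 3 of 3 genes in both genotypes, Dimt1 included, with 5.62 and 5.53 FPKM in Bach2(+/+) DZ (0.41 ± 0.1, adjusted p = 0.0248) and 6.30 and 6.49 FPKM in Bach2(f/f) DZ (0.55 ± 0.1, adjusted p = 0.0073). Nat10 was at 9.59 and 8.94 FPKM in Bach2(+/+) DZ and at 11.8 and 12.3 FPKM in Bach2(f/f) DZ.

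Zone differences of the small subunit genes ran from −0.26 to 0.66 in Bach2(+/+) and from −0.12 to 0.81 in Bach2(f/f), and those of the large subunit genes from −0.17 to 0.59 and from 0.03 to 0.85. Rrp12 was at 5.47 and 5.20 FPKM in Bach2(+/+) DZ (0.56 ± 0.055, adjusted p = 0.000975) and at 7.79 and 7.83 FPKM in Bach2(f/f) DZ (0.75 ± 0.055, adjusted p = 0.000308). Pes1 was at 30.6 and 31.2 FPKM in Bach2(+/+) DZ (0.31 ± 0.042, adjusted p = 0.00323) and at 36.4 and 38.3 FPKM in Bach2(f/f) DZ (0.54 ± 0.042, adjusted p = 0.000376). Both were thus lower in DZ than in LZ of the same genotype. Wdr43 was at 39.0 and 39.9 FPKM in Bach2(+/+) DZ, below both LZ libraries (0.11 ± 0.036, adjusted p = 0.0621), and was at 46.5 and 47.3 FPKM in Bach2(f/f) DZ (0.27 ± 0.036, adjusted p = 0.00224). Tcof1 was at 54.4 and 55.3 FPKM in Bach2(+/+) DZ (0.12 ± 0.038, adjusted p = 0.0572) and at 59.1 and 58.2 FPKM in Bach2(f/f) DZ (0.17 ± 0.038, adjusted p = 0.0163). In Bach2(+/+), Wdr43 passed the threshold in 4 of 19 alternative fits (lowest adjusted p = 0.018) and Tcof1 in 3 (lowest adjusted p = 0.0071), both under each of the 3 other scalings.

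Bysl was the 1 gene lower in LZ. In Bach2(+/+) its LZ libraries lay below its DZ libraries (−0.26 ± 0.067, adjusted p = 0.0298), a call that was lost without Bach2(+/+) LZ replicate 2 (adjusted p = 0.126) or Bach2(+/+) DZ replicate 2 (adjusted p = 0.133). In Bach2(f/f) the difference was −0.12 ± 0.067 (adjusted p = 0.202). Rrs1, a large subunit factor, was the other gene below 0 in Bach2(+/+). It was at 26.9 and 25.8 FPKM in Bach2(+/+) LZ and at 28.2 and 31.5 FPKM in Bach2(+/+) DZ (−0.17 ± 0.093, adjusted p = 0.209). Its Bach2(f/f) values, 39.8 and 37.4 FPKM in LZ and 41.3 and 34.7 FPKM in DZ, overlapped between zones. Rrs1 was called higher in Bach2(f/f) LZ than in Bach2(+/+) LZ, so it differed with genotype in LZ and was not called between zones. The genes not called in Bach2(+/+) were Tcof1, Wdr43, Imp4, Nob1, Bop1, Rrs1, Nip7, Urb2 and Grwd1, and those not called in Bach2(f/f) were Bysl and Rrs1.

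**Figure D4:**
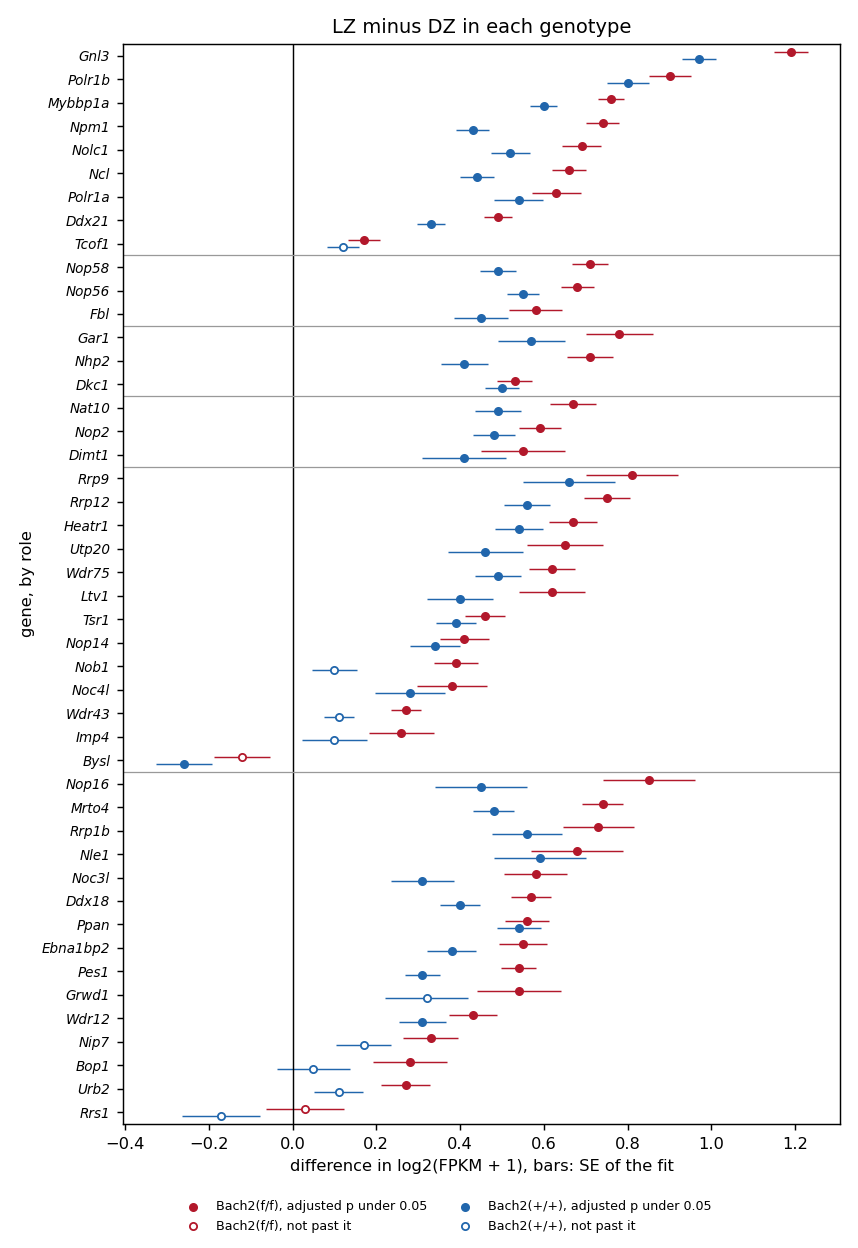
Difference between LZ and DZ in log2(FPKM + 1) (horizontal axis, bars are the SE of the fit) for each of the 46 genes (vertical axis, by role) within each genotype; filled points have an adjusted p under 0.05. Gnl3 lies farthest to the right in both genotypes (0.97 and 1.19), and Bysl lies to the left of 0 in both.

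Whether the genotype difference depended on zone was tested as an interaction, the LZ genotype difference minus that in DZ. For 46 of 46 genes the LZ difference was the larger one, against 53.3% of all tested genes, with a median of 0.17 (range 0.02 to 0.40) against 0.01 over all genes. Under other scalings, 43 to 46 of the genes were above 0. By limma with Benjamini-Hochberg adjustment, 0 of the 46 were called, against 0.0283% of all tested genes, and the lowest adjusted p was 0.291, for Npm1. At an unadjusted p under 0.05 there were 15 of 46, against 11.6% of tested genes. Npm1 was at 536 and 559 FPKM in Bach2(+/+) DZ and at 632 and 628 FPKM in Bach2(f/f) DZ, a difference of 0.20 against 0.51 in LZ (interaction 0.31 ± 0.056). The largest interaction, 0.40 ± 0.15, was that of Nop16 (adjusted p = 0.404), the gene with the widest spread in Bach2(+/+) DZ. No single gene was thus shown to differ between zones in its genotype difference.

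Over the 4 groups, 32 of the 46 genes had the same order of means: Bach2(+/+) DZ, Bach2(f/f) DZ, Bach2(+/+) LZ and Bach2(f/f) LZ, from low to high, against 9.63% of all tested genes. In 22 of these no neighbouring groups overlapped, against 3% of all tested genes. The mean was highest in Bach2(f/f) LZ for 45 genes, against 30.2%, and lowest in Bach2(+/+) DZ for 44, against 23.9%. The middle groups were the least settled: both Bach2(f/f) DZ libraries lay below both Bach2(+/+) LZ libraries for 22 genes and above them for 8, against 33.4% and 39.3% of all tested genes. Nop2, Nolc1 and Mrto4 were among the genes whose mean in Bach2(f/f) DZ exceeded that in Bach2(+/+) LZ, and Gnl3, Nop58 and Npm1 among those where it was lower. In both genotype comparisons 32 genes were called higher, against 5.81% of all tested genes, and 13 were called in LZ and not in DZ, against 12.6%. The reverse held for 0 genes, against 0.82%, and 1 was called in neither, against 80.8%.

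**Figure D5:**
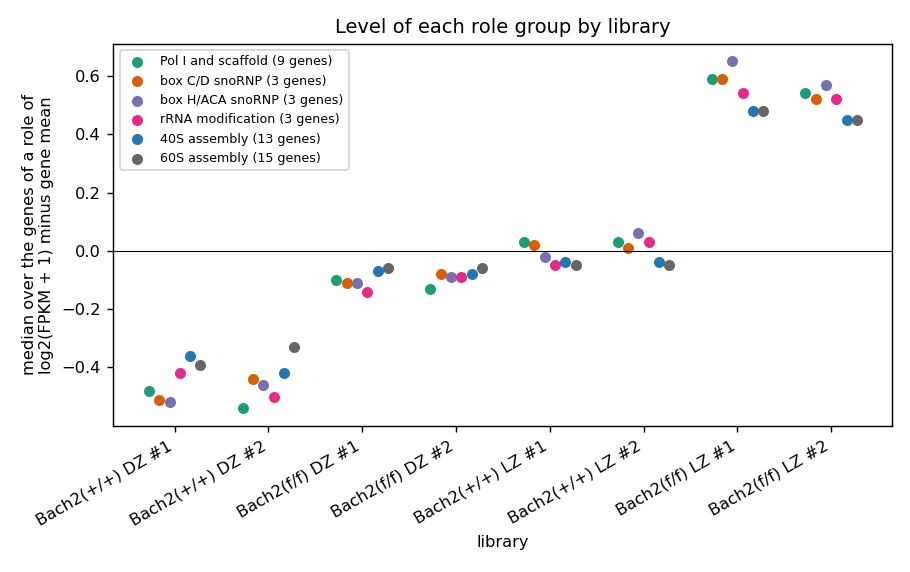
Median over the genes of each role of log2(FPKM + 1), centred on each gene's mean over the 8 libraries (vertical axis), for every library by group (horizontal axis). In each role the Bach2(f/f) LZ libraries are highest and the Bach2(+/+) DZ libraries lowest, and over all 46 genes the library medians run from −0.43 to 0.54.

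Further genes of the pathway, 113 of 117 listed, were measured for comparison. In LZ, 67 of 113 were higher in Bach2(f/f) and 2 were lower, with a median difference of 0.29, against 18.4% of all tested genes higher and 12.7% lower. By role, 9 of 10 snoRNP assembly genes, 27 of 43 small subunit genes and 30 of 47 large subunit genes were higher. Of 13 genes of RNA polymerase I transcription, 1 was higher (7.69%, below the share of all tested genes). It was Cd3eap, a subunit of the polymerase, named after its value was seen (5.12 ± 0.541 FPKM in Bach2(+/+) LZ, SD, n = 2, and 7.22 ± 0.753 in Bach2(f/f) LZ). For 8 of the 13, both Bach2(f/f) LZ libraries lay above both Bach2(+/+) LZ libraries, against 36.5% of all tested genes. In DZ, 3 of the 13 were called higher (23.1%), against 6.63% of all tested genes. The smallest p-values were those of Pa2g4, a growth-regulated factor of large subunit assembly, with 114 and 119 FPKM in Bach2(+/+) LZ and 186 and 183 FPKM in Bach2(f/f) LZ (0.66 ± 0.045, limma adjusted p = 0.000887), and of Mki67ip, a nucleolar protein that binds Ki-67, with 27.6 and 27.5 against 42.6 and 44.5 FPKM (0.64 ± 0.051, adjusted p = 0.000979).

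The 2 lower genes were Gltscr2 and Nsa2, both factors of the large subunit. Gltscr2 was at 165.5 and 154 FPKM in Bach2(+/+) LZ and at 122 and 112 FPKM in Bach2(f/f) LZ (−0.45 ± 0.071, limma adjusted p = 0.00563). Nsa2 was at 79.2 and 82.0 FPKM in Bach2(+/+) LZ and at 68.9 and 68.8 FPKM in Bach2(f/f) LZ (−0.22 ± 0.048, adjusted p = 0.0153). Their direction was opposite to that of all 15 large subunit genes among the 46. In DZ, 30 of the 113 further genes were higher in Bach2(f/f) and 0 were lower (median 0.18), against 6.63% of all tested genes higher. Between zones, 46 were higher in LZ and 3 lower in Bach2(+/+) (median 0.13), against 15.2% and 16.1% of all tested genes. The 3 were Ddx54, Ddx24 and Zfp622, named after their values were seen. In Bach2(f/f), 61 were higher and 4 lower (median 0.28), against 18% and 16.1%, the 4 being Riok3, Ddx54, Ddx24 and Gltscr2, again named after the values were seen. In the interaction 0 of the 113 were called by limma, against 0.0283% of all tested genes. At an unadjusted p under 0.05 there were 23 of 113, against 11.6% of all tested genes.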

How the data were processed

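The deposited file analysed is 1 table of FPKM values made by the authors, with 8 columns of libraries, per the file headers. Per the submitters' processing notes, the tools were Cufflinks 2.1.1 and TopHat2 2.0.8 and the build was mm9. Roles, options and annotation are not given in the sources used here. RNA of sorted cells was made into libraries with an NEBNext Ultra kit, per the labels' protocols, and strand-keeping is not stated. Counts were not analysed here, and 1 row of library codes was left out.

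From these values, log2(FPKM + 1) was fitted by limma 3.58.1 (R 4.3.3), with 1 mean for each of 4 groups and a variance trend on level. The 10610 genes that reached 1 FPKM in 2 or more libraries entered, with 4 residual and 2.46 prior degrees of freedom. All tests were 2-sided. P-values were adjusted by Benjamini-Hochberg in each of 5 contrasts, and the threshold was 0.05. The scale understates changes of low genes. The fitting code was also run on simulated data with independent noise, which checks the code and not the calls reported here.

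The 46 genes, the roles, the further pathway genes and the motifs were chosen with earlier results of these data known. In each role, the 2 genes with the smallest p and the 1 with the largest p in the LZ genotype contrast were given in full, with any gene called against the direction of the median. Of the further genes, the 2 with the smallest p and any that fell were named. Npm1, Nolc1, Polr1b, Rrs1 and Nop16 were added after their values were seen. Upstream stretches came from the RefSeq table, and snoRNA and overlap annotation from GENCODE, both of build GRCm38. No coordinates of the files' own build were used. The alternatives were other pseudocounts, filters, scalings and variance models, a replicate block, fits of the 4 libraries of a contrast alone, and fits with each library left out. A fit without both number 2 LZ libraries was added after the data were seen.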

Additional observations from a re-analysis of the deposited data

How the results depend on the processing

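The replicate numbers are shared by the groups, but the labels do not say that a number marks a shared animal, batch or day, and deviations of same-numbered libraries correlated at −0.108 to 0.124 over pairs of groups, so they were not taken as pairs. With a replicate block, 44 of the 46 genes were higher in the LZ genotype contrast and 29 in DZ, against 16.6% and 4.5% of all tested genes. Between zones, 35 were higher in LZ of Bach2(+/+) and 42 in LZ of Bach2(f/f), against 13.7% and 16.7%. In the interaction 0 were called, against 0.0283%. The 1 gene lower in LZ of Bach2(+/+), Bysl, became 0 with the replicate block, in a fit of only the 4 libraries compared, and without both number 2 LZ libraries. Leaving out each library gave 0 to 1 there. The DZ genotype count ran from 7 to 34 when each library was left out, the LZ genotype count from 39 to 45, and the zone counts from 32 to 36 in Bach2(+/+) and from 37 to 43 in Bach2(f/f). A group left with 1 library was assumed to vary like the others. No difference past the threshold changed sign under these alternatives. Differences that were not called did so in 7 cases: Bop1 between zones in Bach2(+/+) (0.05, down to −0.05), Rrs1 between zones in Bach2(f/f) (0.03, down to −0.1), and the interaction of Dkc1, Nle1, Ppan, Rrp9 and Tcof1 (down to −0.02, −0.07, −0.03, −0.01 and −0.01). Over 19 alternatives, 30 of 45 LZ genotype calls, 6 of 32 in DZ, 30 of 37 between zones in Bach2(+/+) and 37 of 44 in Bach2(f/f) were kept in every one. Dimt1 is the 1 gene that passed in LZ under some alternative. Depth in reads is unknown, so no counting interval is given.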

Other observations

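By GENCODE annotation, 8 of the 46 genes contain snoRNA genes within their span (Ncl, Gnl3, Nop56, Nop58, Dkc1, Wdr43, Tsr1 and Ppan), 23 snoRNAs in all. The share was 17.4%, against 2.01% of the 8989 tested genes matched to the annotation. Such snoRNAs are generally processed from introns of their host transcripts, and many guide modification of ribosomal RNA. The 8 host genes had a median LZ genotype difference of 0.51 (range 0.34 to 0.63) in log2(FPKM + 1), and the other 38 genes had 0.52 (range 0.15 to 0.75). In DZ the medians were 0.38 and 0.35. Host and other genes thus covered overlapping ranges in both zones.

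The exons of 21 of the 46 genes overlap an exon on the opposite strand. Strand-keeping is not stated, so reads of such partners cannot be told apart. The exons of 5 genes, Ncl, Gnl3, Nop56, Nop58 and Ppan, overlap another gene on the same strand, where strand could not separate reads. These partners were snoRNAs counted above and, in Ncl, also a microRNA. Mrto4, the gene with the highest LZ genotype difference, has copies in the annotation, named as its pseudogenes, that could share reads with it. Copies were searched by that form of name only, so pseudogenes under other names were not looked for in any of the 46 genes. The part of these overlaps and copies in the values was not tested.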
